A study of Mus musculus with 12 samples.

Results

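Transcripts of 9 ABCA lipid transporters (Abca8a, Abca8b, Abca9, Abca6, Abca5, Abca2, Abca3, Abca4 and Abca7) were followed in the striatum and cortex of R6/2 mice, a model of Huntington's disease (HD). They are 9 of the 23282 gene rows of the count tables, and were chosen by a measured value, since Abca8a had one of the larger rises in HD mice after symptom onset. That choice used the values of the 8 HD libraries, so the change of these genes after onset is given as a description with no test. R6/2 mice hold, beside their own Htt genes, a human HTT transgene that covers just the first exon with a long CAG repeat, and so express a fragment of the mutant protein and not the whole of it. The controls were WT littermates without the transgene, and no mouse received a drug. HD mice were sampled at 8 weeks (pre-symptomatic) and at 13 weeks (post-symptomatic), and WT mice at the same ages. Each HD group of age and region had 2 RNAseq libraries and each WT group had 1, making 12 in all. Neither the sex nor the number of mice behind each library is given in the sources used here.

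ABCA proteins are large membrane transporters that use ATP to move lipids across or out of membranes, and most work on phospholipids, sterols or sphingolipids. Brain tissue depends on them because myelin is built from cholesterol and sphingolipids and because the brain makes and recycles its own cholesterol. Abca8a, Abca8b, Abca9, Abca6 and Abca5 form a subgroup of closely related genes that lie side by side, whereas Abca2, Abca3, Abca4 and Abca7 belong to an older branch and lie on separate chromosomes. ABCA8 proteins have been linked to sphingomyelin production in oligodendrocytes and to cholesterol efflux, ABCA2 to lipid handling in the endolysosomes of oligodendrocytes, and ABCA7 to phospholipid efflux and phagocytosis.

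In the mm10 assembly (GRCm38), whose genes were placed with the GENCODE annotation, the subgroup occupied one stretch of chromosome 11, all on the minus strand. Abca8b spanned chr11:109932190-109995845, Abca8a chr11:110025634-110095978, Abca9 chr11:110100749-110168196, Abca6 chr11:110176820-110251776 and Abca5 chr11:110269369-110337716. Abca2 lay at chr2:25428703-25448540, Abca3 at chr17:24351950-24410201, Abca4 at chr3:122044443-122180123 and Abca7 at chr10:79996494-80015572, all on the plus strand. The promoters of Abca8a and its neighbours Abca8b and Abca9 are shown because these adjacent genes behaved differently after onset, and that of Abca2 because Abca2 gave most of the family's reads. Each runs from 250 bases before to 50 bases after the RefSeq start site (GRCm38.p6), 5′ to 3′ on the strand of the gene, and capitals mark the motifs CACGTG (E-box) and GGGCGG (GC box, or CCGCCC where it lies on the other strand).
Abca8a, chr11:110095888-110096187, minus strand: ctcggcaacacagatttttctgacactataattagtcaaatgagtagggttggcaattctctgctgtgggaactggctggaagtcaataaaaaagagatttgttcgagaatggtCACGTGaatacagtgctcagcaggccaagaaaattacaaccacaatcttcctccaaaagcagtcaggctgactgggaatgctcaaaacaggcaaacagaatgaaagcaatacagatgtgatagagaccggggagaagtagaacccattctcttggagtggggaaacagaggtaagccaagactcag
Abca8b, chr11:109995796-109996095, minus strand: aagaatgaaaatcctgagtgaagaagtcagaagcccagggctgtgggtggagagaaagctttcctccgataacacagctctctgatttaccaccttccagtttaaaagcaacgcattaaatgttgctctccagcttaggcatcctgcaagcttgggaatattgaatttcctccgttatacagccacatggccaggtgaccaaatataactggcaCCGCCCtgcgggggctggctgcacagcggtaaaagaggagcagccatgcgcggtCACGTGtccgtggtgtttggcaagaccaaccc
Abca9, chr11:110168104-110168403, minus strand: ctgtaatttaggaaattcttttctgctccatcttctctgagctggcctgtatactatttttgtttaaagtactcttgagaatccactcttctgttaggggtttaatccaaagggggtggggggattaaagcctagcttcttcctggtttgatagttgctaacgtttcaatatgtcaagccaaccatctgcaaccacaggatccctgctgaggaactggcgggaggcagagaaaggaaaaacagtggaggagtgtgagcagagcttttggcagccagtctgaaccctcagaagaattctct
Abca2, chr2:25428349-25428648, plus strand: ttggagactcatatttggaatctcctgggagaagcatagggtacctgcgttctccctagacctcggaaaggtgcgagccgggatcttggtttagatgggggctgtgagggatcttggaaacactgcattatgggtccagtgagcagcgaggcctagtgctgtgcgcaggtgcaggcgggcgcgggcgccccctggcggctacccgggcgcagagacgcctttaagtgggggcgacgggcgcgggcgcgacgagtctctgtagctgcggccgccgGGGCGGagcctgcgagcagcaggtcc

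The Abca8a promoter held 4 CpG dinucleotides in 300 bases and was 44.3% G and C, and that of Abca9 held 2 CpG and was 45.3% G and C. Abca8b had 10 CpG, whereas Abca5 had 40, Abca3 29, Abca2 26, Abca7 19 and Abca4 15. The median of 32851 RefSeq promoters of this length was 7 CpG and 52.7% G and C, so Abca8a and Abca9 were the CpG-poor members of the family. The motif TATAAA, the GC box GGGCGG, the motif CCAAT and the E-box CACGTG were searched on both strands. The search found 1 CACGTG in the Abca8a promoter, 136 bases before the start, and 1 in that of Abca8b, 18 bases after it. CACGTG occurred in 7.15% of all promoters and in no other of the 8 members with a RefSeq promoter. GGGCGG, present in 35.7% of promoters, was found in Abca8b, Abca5, Abca2, Abca3 and Abca7, TATAAA (13.6%) in Abca4 and CCAAT (37.4%) in Abca7. None of these motifs overlapped another in the printed promoters. These matches describe letters in a window and were not tested for binding.

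Libraries held 8814386 to 12091201 counts, and levels are given in CPM (counts scaled to a common library total). Reads came from the 3′ ends of transcripts, so that a transcript gives about 1 read whatever its length, and CPM are compared between members on that footing. Rn45s, the ribosomal RNA precursor, took 10.5 to 15.2% of the counts of HD libraries and 4.32 to 5.62% of those of WT libraries. Of the striatal neuron markers, 7 of 7 tested were higher in striatum than in cortex. Replicate 2 of the pre-symptomatic HD striatum stood apart: it held 21832 CPM of 15 oligodendrocyte markers against 3373 in replicate 1, 1835 CPM of 5 thalamic neuron markers against 121, and 2092 CPM of 8 striatal neuron markers against 6418. Some results that rest on this library are also given without it, and the others include it. Choroid plexus markers also varied between HD libraries, from 2.52 to 3260 CPM, against 5.46 to 19.1 CPM in WT libraries. Sources used here do not say whether striatum and cortex libraries came from the same mice or whether replicates were separate mice, and p-values measure only the spread between these libraries.

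Abca2 was by far the most abundant member, with 78.5% of all reads on the family. Abca3 had 8.72%, Abca5 5.80%, Abca7 2.92% and Abca8a 2.32%. Abca9, Abca8b, Abca4 and Abca6 each had under 1% of the family's reads. Of the 9 members, 8 passed the filter on low counts in the fit of all libraries. Abca6, with 0 to 11 counts a library, did not pass and was not tested. The plot of CPM by library shows all 9 members on their own scales.

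**Figure D1:**
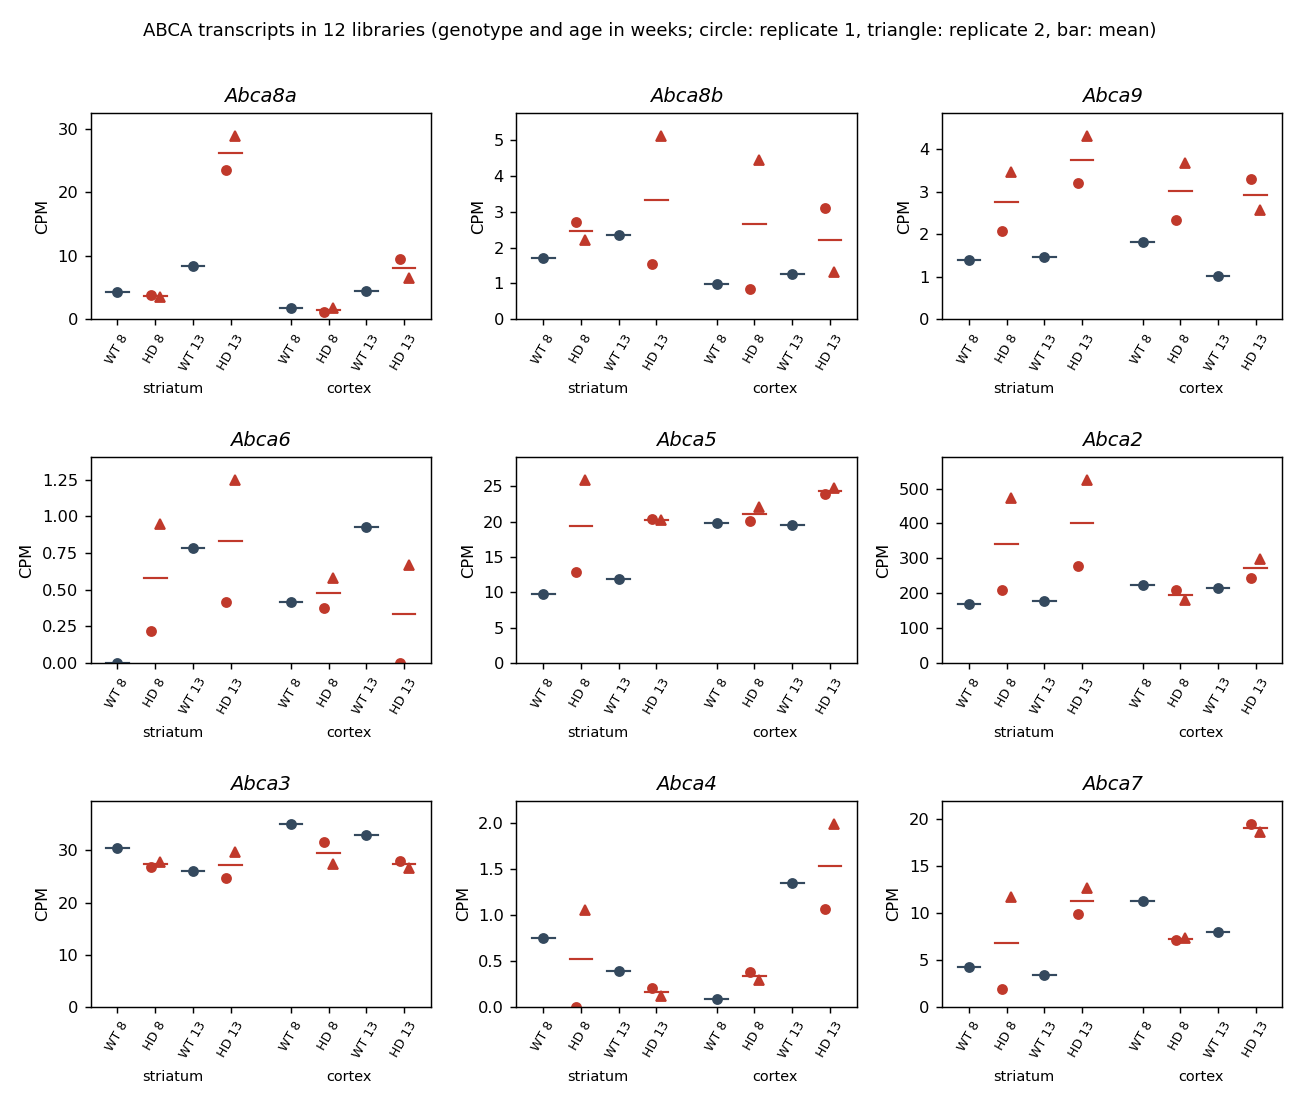
Levels (CPM, linear axis from 0) of the 9 ABCA members in 12 libraries, by genotype and age in weeks, striatum on the left and cortex on the right of each panel; circles are replicate 1, triangles replicate 2 and bars the group mean. Abca8a stood at 23.5 and 28.8 CPM in post-symptomatic HD striatum and at 3.81 CPM or below in every pre-symptomatic HD library, whereas replicate 2 of the pre-symptomatic HD striatum was far above replicate 1 for Abca2, Abca5 and Abca7.

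Abca8a, whose protein is tied to sphingolipid and cholesterol handling, rose in both regions of HD mice after onset. In the striatum, pre-symptomatic HD libraries had 3.81 and 3.57 CPM of Abca8a (35 and 34 counts) and post-symptomatic HD libraries had 23.5 and 28.8 CPM (227 and 254 counts). In the cortex, the pre-symptomatic values were 1.22 and 1.84 CPM (13 and 19 counts) and the post-symptomatic values 9.52 and 6.56 CPM (107 and 69 counts). The ages did not overlap in either region. The mean went from 3.69 ± 0.17 to 26.2 ± 3.77 CPM in striatum (SD, n = 2), a ratio of 7.09, and from 1.53 ± 0.44 to 8.04 ± 2.09 CPM in cortex, a ratio of 5.26. Fitted over both regions, the log2 fold change was 2.43 (SE 0.26), which is the value that chose the family and ranked 2 of 10788 tested genes with a mean of at least 5 CPM. Post-symptomatic HD libraries lay above pre-symptomatic ones without overlap in both regions for 21.9% of all tested genes, and 6.45% of genes were called in this contrast at an adjusted p under 0.05. Because the tissue was bulk, more cells that express a gene and more RNA per cell cannot be told apart here or in any later comparison. Markers of other cells moved with age in the same libraries. Of 7 tested striatal neuron markers 3 were called lower after onset, and their sum in striatum was 2092 to 6418 CPM before onset and 1434 to 1473 CPM after it. Of 8 astrocyte markers 1 was called lower (5 at an unadjusted p under 0.05, 4 by DESeq2), with a median log2 difference of -0.49. Their sum was 4106 to 4783 CPM before and 3265 to 3576 CPM after onset in striatum, and 5192 to 5217 CPM before and 3380 to 3573 CPM after in cortex. The part of these markers in the rise of Abca8a was not tested.

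With all HD libraries, only Abca8a among the 9 was above its pre-symptomatic range in both striatum and cortex. For Abca2, Abca5 and Abca7 the stages were separate in cortex. Their overlap in striatum came from replicate 2 of the pre-symptomatic HD striatum alone. Replicate 1 of that group, at 209, 12.8 and 1.85 CPM, was below both post-symptomatic striatal libraries for each of these genes. The fitted log2 difference was -0.10 (SE 0.60) for Abca8b, 0.00 (SE 0.39) for Abca9, -0.06 (SE 0.20) for Abca5, 0.16 (SE 0.28) for Abca2 and -0.26 (SE 0.14) for Abca3. Leaving out each HD library in turn gave -0.63 to 0.60 for Abca8b and -0.18 to 0.21 for Abca9. The same ranges were -0.22 to 0.16 for Abca5, -0.04 to 0.45 for Abca2 and -0.35 to -0.20 for Abca3. Abca7 stood at 0.87 (SE 0.44) with all HD libraries and at 1.54 without replicate 2 of the pre-symptomatic HD striatum. Abca4, with 0 to 21 counts a library, stood at 0.38 (SE 1.11). Over the 8 members tested, the median of these differences was 0.08, beside 0.00 over all genes.

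WT mice also had more Abca8a at the later age. The WT striatum had 4.26 CPM at 8 weeks (95% Clopper-Pearson interval 3.04 to 5.80, counting error only) and 8.41 CPM at 13 weeks (6.73 to 10.4). The WT cortex had 1.74 CPM at 8 weeks (1.08 to 2.65) and 4.45 CPM at 13 weeks (3.34 to 5.83). In neither region did the intervals of the WT ages overlap, and the log2 fold change was 1.19 (SE 0.36), a 2.27-fold difference. With 1 WT library per age and region this missed the threshold over all genes (adjusted p = 1, unadjusted p = 0.00643, the quasi-likelihood test of edgeR after Benjamini-Hochberg adjustment). Of the 8 members tested, 0 were called between the WT ages by edgeR and 0 by DESeq2, and 1 (Abca8a) had an unadjusted p under 0.05. Over all genes 0.0136% were called and 1.82% had an unadjusted p under 0.05. Abca8a, Abca8b and Abca6 had the higher value at 13 weeks in both WT regions, as did 24.2% of all tested genes. Whether the change with age was larger in HD than in WT mice was not tested, because the HD part of that difference chose the family.

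Set beside WT mice of the same age, Abca8a was close to WT values before onset and above them afterwards. At 8 weeks the HD striatum averaged 3.69 CPM against 4.26 in WT, and the HD cortex 1.53 against 1.74. At 13 weeks the HD striatum averaged 26.2 CPM against 8.41 in WT, a ratio of 3.11, and the HD cortex 8.04 against 4.45, a ratio of 1.80. All 4 post-symptomatic HD libraries were above the WT library of their region, whereas 1 of 4 pre-symptomatic libraries was. The fitted log2 difference was -0.06 (SE 0.33) at 8 weeks and 1.17 (SE 0.31) at 13 weeks. Both use HD libraries that chose the gene and were not tested.

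**Figure D2:**
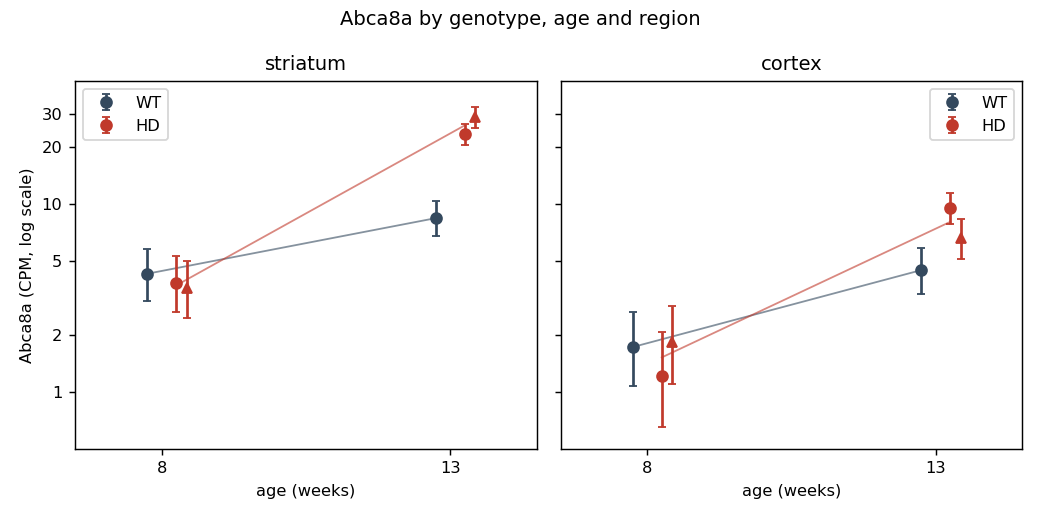
Abca8a (CPM, log axis) against age in weeks in striatum (left) and cortex (right), for HD mice (red) and WT mice (dark), with 95% Clopper-Pearson intervals of counting error for each library and lines between group means. HD and WT libraries lay close together at 8 weeks, and both genotypes were higher at 13 weeks, HD mice by 7.09-fold in striatum and 5.26-fold in cortex.

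Every age and genotype had both regions, so the region difference of Abca8a is separate from a change after onset averaged over regions. It still used the 8 HD libraries that chose the family, and only the 4 WT libraries had no part in that choice. Abca8a was higher in striatum than in cortex in every group: by 3.25-fold in post-symptomatic HD mice, 2.41-fold in pre-symptomatic HD mice, 1.89-fold in 13-week WT mice and 2.45-fold in 8-week WT mice. All striatal libraries exceeded all cortical libraries of their own genotype and age, which held for 9.78% of all tested genes and for no other member. The log2 fold change was 1.31 (SE 0.21, 12 libraries), with an adjusted p of 0.000902 in the quasi-likelihood test of edgeR after Benjamini-Hochberg adjustment. It was 1.50 (adjusted p = 0.00547) in the HD libraries alone and 1.01 (adjusted p = 0.0563) in the 4 WT libraries alone. Abca8a was the only member of 8 called between regions with all libraries, where 20.6% of all genes were called and 8.51% were called as higher in striatum. At an unadjusted p under 0.05 there were 3 members (Abca8a, Abca5 and Abca7), as for 33.4% of all genes. The rise in HD mice after onset was 2.67 (SE 0.36) on the log2 scale in striatum and 2.14 (SE 0.38) in cortex. The difference between these, 0.53 (SE 0.52), did not pass the test (adjusted p = 1), nor did the difference of any of the 14392 genes tested by edgeR. At an unadjusted p under 0.05 there were 519 such genes (3.61%), 0 of them members, and DESeq2 called 17, again with 0 members.

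Oligodendrocytes are a known site of ABCA8 and Abca2 expression, so both were set beside 15 oligodendrocyte markers, all of them detected. The summed markers were 5289 to 8396 CPM in post-symptomatic HD striatum, 3373 to 21832 in pre-symptomatic HD striatum, and 5668 and 6822 in WT striatum at 13 and 8 weeks. In cortex they were 2725 to 3162 CPM in post-symptomatic and 2230 to 2532 in pre-symptomatic HD mice, and 4387 and 4559 in WT mice at 13 and 8 weeks. After onset 0 of 15 markers were called by edgeR or DESeq2, and 0 had an unadjusted p under 0.05. Their median log2 difference was -0.50 with replicate 2 of the pre-symptomatic HD striatum included, and no median without it is given. Replicate 1 of that group had a marker sum of 3373 CPM, below both post-symptomatic striatal libraries. In cortex both post-symptomatic sums were above both pre-symptomatic ones, although the fitted median there was -0.10. Abca8a per 1000 CPM of markers was 2.07 to 4.44 CPM in the post-symptomatic HD libraries, 0.163 to 1.13 in the pre-symptomatic ones, 1.02 and 1.48 in 13-week WT libraries and 0.381 and 0.624 in 8-week WT libraries. The Abca8a values in this ratio are those that chose the family, so its height after onset is a description. The library richest in the markers, replicate 2 of the pre-symptomatic HD striatum, had 3.57 CPM of Abca8a, no more than replicate 1. Between regions, 15 of 15 markers had a positive log2 difference towards striatum, with a median of 1.27 beside 1.31 for Abca8a. Both values include replicate 2 of the pre-symptomatic HD striatum, which had by far the highest marker sum but no raised Abca8a. In WT mice the sums were 5668 CPM in striatum against 4387 in cortex at 13 weeks, and 6822 against 4559 at 8 weeks. Abca8a stood at 1.01 in the WT libraries alone. By edgeR 1 of 15 markers (Opalin, a myelin protein) was called between regions, although 14 of 15 had an unadjusted p under 0.05 and DESeq2 called 12. The part of oligodendrocyte content in the rise after onset and in the region difference was not tested.

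**Figure D3:**
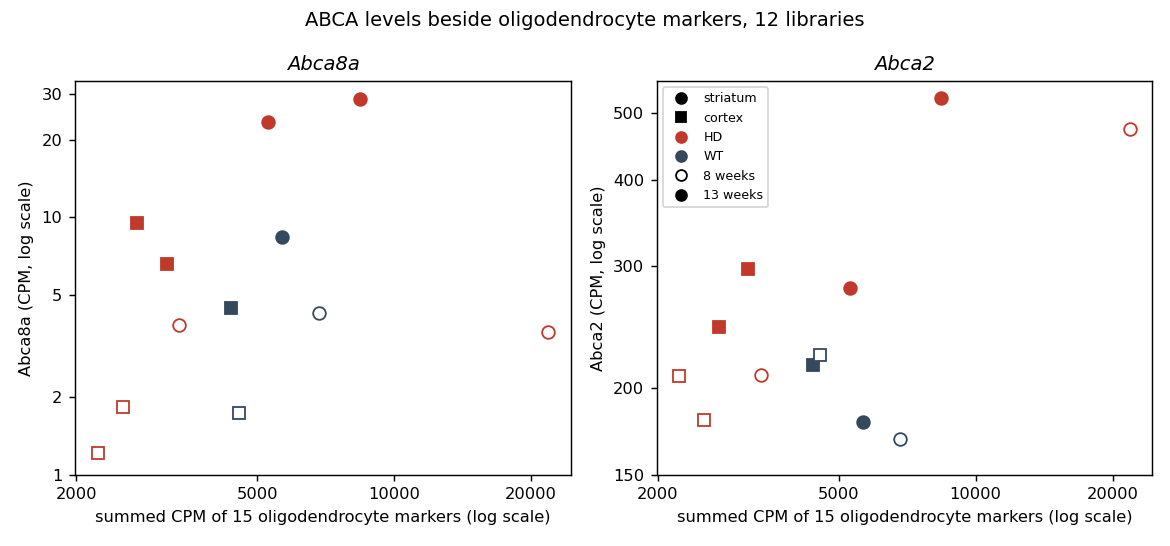
Abca8a (left) and Abca2 (right) in CPM against the summed CPM of 15 oligodendrocyte markers, both on log axes, in 12 libraries; circles are striatum and squares cortex, red HD and dark WT, open 8 weeks and filled 13 weeks. Within each region the filled HD points of Abca8a lay above all others of that region, and the open HD circle at 21832 CPM of markers had 3.57 CPM of Abca8a and 474 CPM of Abca2.

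Abca9, a transporter described in macrophages as responsive to cholesterol, was the member called between genotypes. HD striatum had 3.21 and 4.31 CPM after onset and 2.07 and 3.46 CPM before it, against 1.47 CPM at 13 weeks and 1.38 CPM at 8 weeks in WT striatum. HD cortex had 3.29 and 2.57 CPM after onset and 2.35 and 3.68 CPM before it, against 1.01 and 1.82 CPM in WT cortex at 13 and 8 weeks. All 8 HD libraries were above the WT library of their age and region. In both regions this held for 26.1% of all tested genes at 13 weeks and for 10.7% at 8 weeks, and the share at both ages was not counted. Over both ages, a comparison independent of the change that chose the family, the log2 fold change from WT to HD was 1.16 (SE 0.34), with an adjusted p of 0.0478 by the quasi-likelihood test of edgeR after Benjamini-Hochberg adjustment. Abca9 was thus 1 of 8 members called, where 10.7% of all genes were called and 6.18% were called as higher, a share of members near the background, and DESeq2 also called 1. This call rested on 12 to 38 counts a library: leaving out any 1 library other than replicate 1 of the pre-symptomatic HD striatum moved the adjusted p to between 0.0503 and 0.195, the lower end without replicate 2 of the post-symptomatic HD cortex and the upper without the 13-week WT cortex. Fibroblast markers (9 genes of the meninges and vessels) stood at 779 to 2070 CPM in post-symptomatic HD striatum against 367 in WT. Most of these sums was 1 gene, Ptgds, with 699 and 2014 CPM against 319 in WT. Before onset the striatal sums were 359 to 1256 CPM against 330 in WT. In cortex they were 1858 to 3356 CPM after onset against 1922 in WT, and 1670 to 1931 before it against 1662. The median log2 difference was 0.71 over both ages and 0 of 9 were called (2 of 9 at an unadjusted p under 0.05, 1 by DESeq2). Of 6 choroid plexus markers, 6 had a positive log2 difference over both ages, with a median of 2.42. By edgeR 0 of 6 were called (2 at an unadjusted p under 0.05, 2 by DESeq2). Their sums reached 3260 CPM in replicate 2 of the post-symptomatic HD cortex and 942 CPM in replicate 2 of the pre-symptomatic HD striatum. Both pre-symptomatic HD cortex libraries were below the 8-week WT cortex (7.94 CPM), and every other HD library was above its WT library. Rn45s took a larger share of counts in every HD library. The call of Abca9 was also lost in the run without Rn45s. Beyond that run, the part of these markers and of Rn45s in the difference of Abca9 was not tested.

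The remaining members differed from WT mice by less than the test could call. Over both ages the log2 difference was 0.56 (SE 0.22, adjusted p = 0.138) for Abca8a, 0.54 (SE 0.20, adjusted p = 0.0993) for Abca5, 0.57 (SE 0.28, adjusted p = 0.233) for Abca2 and 0.74 (SE 0.38, adjusted p = 0.244) for Abca7. Abca8b stood at 0.84 (SE 0.51, adjusted p = 0.333) and Abca3 at -0.13 (SE 0.12, adjusted p = 0.532). For 6 of the 8 tested members the difference was positive, with a median of 0.56 beside -0.01 over all genes, and 3 (Abca8a, Abca9 and Abca5) had an unadjusted p under 0.05, as did 25.9% of all genes. The plot of log2 fold changes shows these values with their errors.

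**Figure D4:**
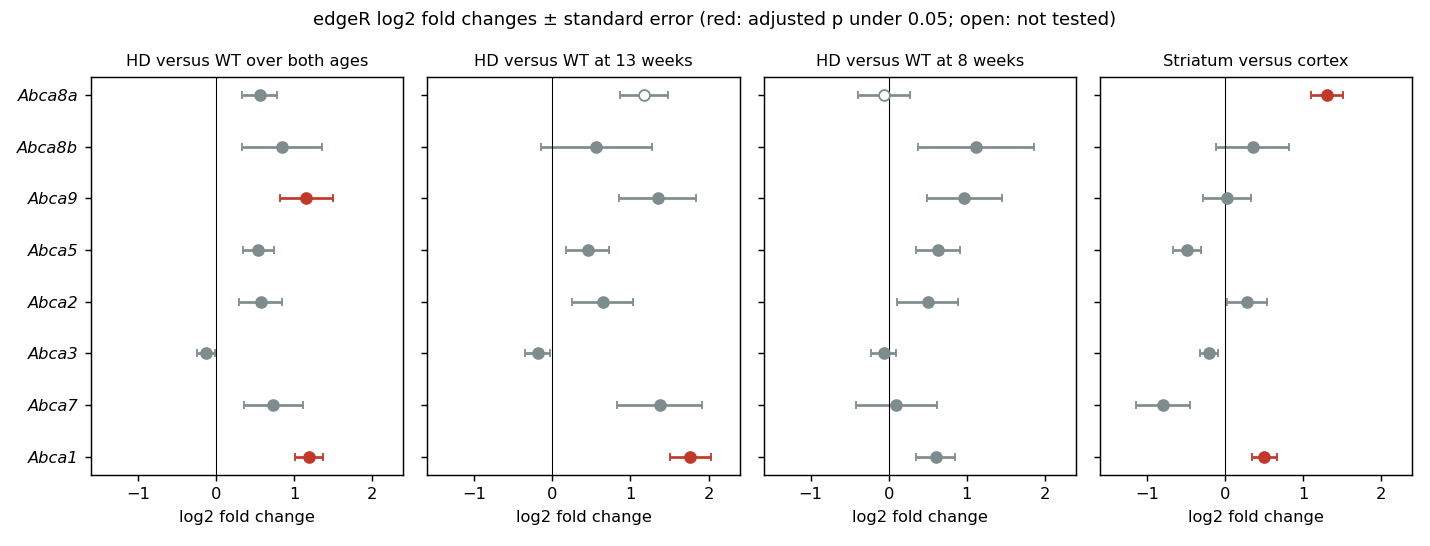
Log2 fold changes with standard errors from edgeR for 7 members and their relative Abca1 in 4 comparisons; positive values are higher in HD mice, or in striatum in the last panel, red points had an adjusted p under 0.05 and open points were not tested. Abca9 was called over both ages (1.16), Abca8a between regions (1.31) and Abca1 over both ages (1.19), at 13 weeks (1.77) and between regions (0.50); Abca4, with 0 to 21 counts a library, is not drawn.

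Abca5, a lysosomal transporter linked to cholesterol, had higher values in HD than in WT libraries of the same age and region. HD striatum had 20.4 and 20.2 CPM after onset and 12.8 and 25.9 CPM before it, against 11.8 and 9.79 CPM in WT striatum at 13 and 8 weeks. HD cortex had 23.9 and 24.8 CPM after onset and 20.1 and 22.1 CPM before it, against 19.5 and 19.8 CPM in WT cortex. All 8 HD libraries were above their WT library, by 1.71-fold in striatum and 1.25-fold in cortex at 13 weeks. Such a separation in both regions held for 26.1% of all tested genes at 13 weeks and for 10.7% at 8 weeks. The share of genes with it at both ages was not counted. The region difference in HD less that in WT was 0.69 on the log2 scale (SE 0.34, adjusted p = 0.51), or 0.47 (adjusted p = 0.567) without replicate 2 of the pre-symptomatic HD striatum, and did not pass the test. Neither age passed the test against WT, with log2 differences of 0.46 (SE 0.27, adjusted p = 0.368) at 13 weeks and 0.63 (SE 0.28, adjusted p = 0.334) at 8 weeks. Abca5 was lower in striatum than in cortex by 0.49 on the log2 scale (SE 0.18, adjusted p = 0.0779). The difference was -0.66 without replicate 2 of the pre-symptomatic HD striatum and -0.94 in the WT libraries alone. That WT fit had 1 library per age and region and no replicates. Its spread came only from how far the WT ages disagreed on the region difference, so its calls are weak evidence. The fit of the WT libraries alone called 4300 of 13804 genes between regions, against 3024 of 14706 with all libraries, and 3 members.

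Abca7, which exports phospholipids and takes part in phagocytosis, had its highest values in the cortex of HD mice after onset. Post-symptomatic HD cortex had 19.5 and 18.6 CPM against 7.13 and 7.35 CPM before onset, with 7.90 and 11.2 CPM in WT cortex at 13 and 8 weeks. Post-symptomatic HD striatum had 9.83 and 12.6 CPM, and pre-symptomatic HD striatum 1.85 and 11.6 CPM, with 3.42 and 4.26 CPM in WT striatum at 13 and 8 weeks. The ages of HD mice were separate in cortex and overlapped in striatum, where replicate 2 of the pre-symptomatic group was 111 counts against 17 in replicate 1. Against WT mice of 13 weeks the log2 difference was 1.37 (SE 0.54, adjusted p = 0.154). With each library left out in turn the difference was 1.13 to 1.67, and 1.41 without replicate 2 of the pre-symptomatic HD striatum. At 8 weeks it was 0.10 (SE 0.52, adjusted p = 0.961) with all libraries and -0.57 without that replicate. Abca7 was lower in striatum by 0.79 on the log2 scale (SE 0.35, adjusted p = 0.131). The difference was -1.25 without that replicate and -1.38 in the WT libraries alone, which had 1 library per age and region.

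Abca2, the endolysosomal transporter of myelinating cells, had group means below those of cortex in the striatum of WT mice and above them in the striatum of HD mice. WT striatum had 179 and 169 CPM at 13 and 8 weeks, below the 216 and 223 CPM of WT cortex. HD striatum had 279 and 525 CPM after onset and 209 and 474 CPM before it. HD cortex had 245 and 298 CPM after onset and 208 and 180 CPM before it. The HD regions overlapped after onset, and the replicates of each HD striatum group differed by more than the region means of WT mice did. In the WT libraries alone, with 1 library per age and region, Abca2 was lower in striatum by 0.41 on the log2 scale. With all libraries the difference was 0.28 (SE 0.26, adjusted p = 0.502), and without replicate 2 of the pre-symptomatic HD striatum 0.06. A test of the region difference in HD less that in WT, added after these values were seen, gave 1.05 (SE 0.45, adjusted p = 0.479, unadjusted p = 0.0422), and 0.77 (adjusted p = 0.46) without that replicate. In that test edgeR called 0 genes, and DESeq2 called 0.435% of genes but not Abca2 (adjusted p = 0.259). Both HD striatal libraries with the higher Abca2 also had the higher oligodendrocyte markers of their group, 8396 against 5289 CPM after onset and 21832 against 3373 CPM before it. Post-symptomatic HD cortex went the same way. In pre-symptomatic HD cortex the library with more Abca2 had fewer markers, 2230 against 2532 CPM. WT striatum had more markers but less Abca2 than WT cortex at both ages. The part of oligodendrocyte content in the level of Abca2 was not tested.

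Abca3, best known for loading surfactant lipids into the lamellar bodies of lung cells, varied least of the members. It ranged from 24.7 to 35.1 CPM over the 12 libraries, with 27.2 ± 3.53 CPM in post-symptomatic and 27.3 ± 0.58 CPM in pre-symptomatic HD striatum (SD, n = 2), and 27.4 ± 0.92 and 29.6 ± 2.99 CPM in HD cortex. WT mice had 26.1 and 30.4 CPM in striatum and 32.9 and 35.1 CPM in cortex at 13 and 8 weeks. HD cortex was thus below WT cortex at both ages, yet the log2 difference was -0.19 (SE 0.16, adjusted p = 0.549) at 13 weeks and -0.07 (SE 0.16, adjusted p = 0.908) at 8 weeks. The 3′ end of Abca3 overlaps D330041H03Rik, a noncoding gene on the other strand, and in each library the Abca3 count was 0.948 to 1.10 times the count of that gene. The sources used here do not say that counting used the strand, so reads of the pair cannot be told apart.

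Abca8b, the nearest relative of Abca8a, varied widely between replicates. It had 1.55 and 5.11 CPM in post-symptomatic and 2.72 and 2.20 CPM in pre-symptomatic HD striatum, and 3.11 and 1.33 CPM and 0.844 and 4.45 CPM in HD cortex at these stages. WT mice had 2.35 and 1.70 CPM in striatum and 1.26 and 0.992 CPM in cortex at 13 and 8 weeks. The HD groups overlapped each other and, after onset in striatum and before onset in cortex, spanned the WT value. The log2 difference from WT was 0.56 (SE 0.71, adjusted p = 0.706) at 13 weeks and 1.12 (SE 0.74, adjusted p = 0.551) at 8 weeks. Coding sequences of Abca8a and Abca8b were 75.5% identical over 4793 aligned bases, with a longest shared run of 97 bases in their transcripts and of 11 bases in the last 500 bases, where these libraries read. The pair could therefore be told apart at the 3′ end of the annotated transcripts. Identity to Abca8a was 72.3% for Abca9, 67.4% for Abca6 and 63.0% for Abca5.

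Abca6 and Abca4 were near the limit of detection. Abca6, a cluster gene whose product is little studied, had 0.414 and 1.25 CPM in post-symptomatic and 0.218 and 0.945 CPM in pre-symptomatic HD striatum, and 0 to 0.665 CPM in HD cortex. WT libraries ranged from 0 to 0.924 CPM, and a count of 0, which occurred in 2 libraries, allows up to 0.319 CPM in 8-week WT striatum and 0.267 CPM in replicate 1 of the post-symptomatic HD cortex. Abca4, the retinoid and phospholipid flippase of photoreceptors, had 1.07 and 2.00 CPM in post-symptomatic and 0.375 and 0.290 CPM in pre-symptomatic HD cortex, and 1.34 and 0.0827 CPM in WT cortex at 13 and 8 weeks. In striatum it lay between 0 and 1.05 CPM. Over both ages Abca4 differed from WT by -0.04 (SE 0.93, adjusted p = 0.985), an error that leaves even large differences undetectable at this depth.

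At single ages the comparison with WT mice covered the members other than Abca8a, and it shares HD libraries with the contrast that chose the family. At 13 weeks, 0 of 7 such members were called by edgeR and 0 by DESeq2, against 7.36% of all genes, and 2 (Abca9 and Abca7) had an unadjusted p under 0.05, as did 22.3% of all genes. Abca9 stood at 1.35 (SE 0.49, adjusted p = 0.119) on the log2 scale and Abca2 at 0.64 (SE 0.40, adjusted p = 0.388). All post-symptomatic HD libraries were above WT in both regions for 5 of the 9 members (Abca8a, Abca9, Abca5, Abca2 and Abca7), as for 26.1% of all tested genes. At 8 weeks, 0 of 7 were called by edgeR and 0 by DESeq2, against 2.1% of all genes, and 1 (Abca5) had an unadjusted p under 0.05, as did 13.9% of all genes. Abca9 stood at 0.97 (SE 0.48, adjusted p = 0.396) and Abca2 at 0.50 (SE 0.39, adjusted p = 0.638). Abca9 and Abca5 were above WT in every pre-symptomatic HD library, as were 10.7% of all tested genes.

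The location of the subgroup allowed Abca8a to be set beside its chromosomal neighbours. Within 500 kb of its start site, 8 genes were tested. After onset, when Abca8a differed by 2.43 on the log2 scale, its flanking relatives Abca8b and Abca9 differed by -0.10 and 0.00. Further out, Abca5 differed by -0.06, Map2k6 (a stress kinase) by -0.02, Prkar1a (a regulatory subunit of protein kinase A) by 0.24, Wipi1 (an autophagy protein) by -0.72 and Fam20a (a pseudokinase of the secretory pathway) by -1.08. Between 8 and 13 weeks in WT mice the difference was 1.19 for Abca8a and -0.39 to 0.42 for the other 7 genes. Its value after onset chose Abca8a, and of these 8 genes it also had the largest value between the WT ages and between regions.

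**Figure D5:**
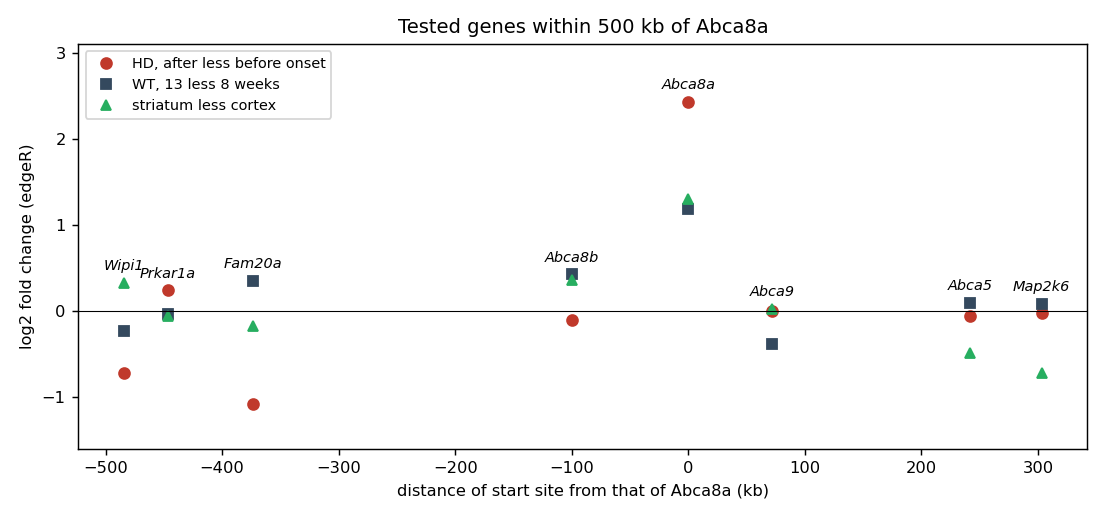
Log2 fold changes (edgeR) of the 8 tested genes within 500 kb of Abca8a against the distance of each start site from that of Abca8a in kb, for HD mice after less before onset (red circles), WT mice at 13 less 8 weeks (dark squares) and striatum less cortex (green triangles). Abca8a reached 2.43, 1.19 and 1.31, while Abca8b and Abca9 beside it lay between -0.39 and 0.42.

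Outside the 9 members, the mouse files list 7 other Abca genes, of which only Abca1 had enough counts to test. Abca1 exports cholesterol and phospholipid to apolipoproteins and is a classical target of the oxysterol-sensing LXR receptors. HD striatum had 59.5 and 63.9 CPM after onset and 16.5 and 26.6 CPM before it, against 15.3 and 21.2 CPM in WT striatum at 13 and 8 weeks. HD cortex had 31.3 and 36.9 CPM after onset and 19.7 and 20.2 CPM before it, against 10.7 CPM in WT cortex at either age. All 4 post-symptomatic libraries were above all others of their region. Over both ages Abca1 was higher in HD mice, with a log2 difference from WT of 1.19 (SE 0.18, adjusted p = 0.00183), of 1.77 at 13 weeks (SE 0.26, adjusted p = 0.00317, and 0.0877 without the 13-week WT striatum), and of 0.60 at 8 weeks (SE 0.25, adjusted p = 0.292). Between the WT ages it differed by -0.24 (SE 0.28, adjusted p = 1). It was higher in striatum than in cortex by 0.50 (SE 0.16, adjusted p = 0.0443), a call lost when any of 9 libraries was left out (adjusted p up to 0.121, without the 8-week WT striatum). Abca12 and Abca16 had no counts, and Abca13, Abca14, Abca15 and Abca17 had 1 to 10 counts over all libraries.

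Among lists of genes that work with these transporters, few were called between genotypes over both ages, where 10.7% of all genes were called. Of 11 tested ABC lipid transporters outside the ABCA family, 1 was called between genotypes over both ages: Abcb1b, a drug and lipid exporter, was higher in HD mice by 1.30 (SE 0.37, adjusted p = 0.0399). Of 38 tested genes of sphingolipid metabolism, 3 were called over both ages, a share below that of all genes. Cers6, a ceramide synthase, was higher by 2.25 (SE 0.54, adjusted p = 0.0194), and Arsa, the sulfatide-degrading arylsulfatase, was higher by 0.95 (SE 0.26, adjusted p = 0.0339). Sphk2, a sphingosine kinase, fell by 0.55 relative to WT (SE 0.14, adjusted p = 0.0234), and it was also lower at 13 weeks, by 0.97 (SE 0.19, adjusted p = 0.0114). The list's median was -0.08, beside -0.01 over all genes. Of 14 sterol-sensing receptors and their targets, 2 were called, Abca1 and Mylip, the ligase that degrades the LDL receptor, which was higher by 0.94 (SE 0.25, adjusted p = 0.0312). Each of these list calls was lost in some alternatives, that of Abcb1b in 12 of 18, Arsa and Mylip in 9 of 19 each, Cers6 in 5 of 18 and Sphk2 in 5 of 19 (2 of 19 at 13 weeks), with no change of direction.

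Between regions, the calls of the ABC and sphingolipid lists went both ways, whereas the sterol list had 3 of 14 higher, 0 lower and a median log2 difference of 0.30. The share of the sterol list called was near that of all genes, of which 20.6% were called in either direction and 8.51% as higher. Abcb4, a phosphatidylcholine exporter, was higher in striatum by 0.60 (SE 0.18, adjusted p = 0.033) and Abcd2, a peroxisomal transporter of very long chain fatty acids, was lower by 0.72 (SE 0.18, adjusted p = 0.0138). Of the 38 sphingolipid genes 3 were higher and 3 lower in striatum, a smaller share than the 20.6% called over all genes. Smpd3, a neutral sphingomyelinase, was higher by 1.30 (SE 0.24, adjusted p = 0.00297) and Gltp, a glycolipid transfer protein, by 1.15 (SE 0.29, adjusted p = 0.0181). Sphk1, a sphingosine kinase, was lower by 2.61 (SE 0.44, adjusted p = 0.00124) and Cers4, a ceramide synthase, by 0.54 (SE 0.12, adjusted p = 0.00629). Of the sterol list, Rxrg, a retinoid X receptor, was higher by 4.999 (SE 0.45, adjusted p = 6.03e-05) and Srebf1, a regulator of lipid synthesis, by 0.40 (SE 0.13, adjusted p = 0.0474). The calls of Smpd3 and Sphk1 held in every alternative run, while those of Srebf1 and Abcb4 were lost in 15 and 14 of 21 and the others named here in 1 to 5 of 21. Of the 8 members tested, 4 had a positive difference, and their median was -0.09.

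Across the 12 libraries, the genes whose log2(CPM + 1) followed that of Abca8a most closely were Skap2 (Pearson's r = 0.958), an adaptor of Src kinases, Epb4.1l4aos (0.952), named as the antisense RNA of its partner gene, Pgap1 (0.951), which remodels GPI anchors, Vmac (0.943) and Ikbip (0.934), among 10782 genes compared. These points share libraries, age and region, and the values are descriptions. Skap2 ranged from 14.4 to 30.3 CPM in post-symptomatic HD libraries, 6.48 to 10.7 in pre-symptomatic ones, and 6.12 to 15.7 in WT libraries. Within the family, Abca8a followed Abca1 (r = 0.77) more closely than Abca2 (0.51), Abca8b (0.40), Abca9 (0.36) or Abca7 (0.26), and its r with the myelin gene Mbp was 0.39. The closest genes to other members were Mast4 for Abca5 (0.983), Plcl1 for Abca2 (0.962), Syde1 for Abca7 (0.957) and the overlapping D330041H03Rik for Abca3 (0.941).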

How the data were processed

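Striatum and cortex of R6/2 mice and their WT littermates were profiled by RNAseq. Per the labels, total RNA was isolated with Trizol and libraries were made with a Lexogen QuantSeq 3′ kit. The authors deposited raw counts for each library, 1 row per gene symbol. The submitters' processing notes name Bowtie2, bedtools and mm10. Versions, the annotation and the use of strand are not given in the sources used here.

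From the deposited counts, CPM were derived, and edgeR 4.0.16 under R 4.3.3 gave log2 fold changes, SE and p-values (robust quasi-likelihood test, TMM, filterByExpr at a minimum of 10 counts), with Benjamini-Hochberg adjustment over all genes and a threshold of 0.05. HD and WT mice, WT ages and regions were compared in 1 model of 12 libraries whose terms were region and 4 combinations of genotype and age, and HD stages in 8 libraries. Each WT group of age and region had 1 library, so its spread was borrowed from the other groups. Libraries held 8814386 to 12091201 counts, and intervals cover counting error only, since reads had no molecular identifiers. Limits for a count of 0 correspond to 3 counts. Alternatives were a threshold of 0.01, a replicate block, DESeq2 1.42.0, scaling by upper quartiles, all genes with a count, a floor of 1 CPM per library, dropping Rn45s, and dropping each library in turn. Scripts were tested on simulated data. Members, gene lists and tests were chosen with earlier results of these data known. All members were named, and of each list the genes with an adjusted p under 0.05, at most 4 by size. Rows that repeated a symbol numbered 44, and 4306 rows had no count.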

Additional observations from a re-analysis of the deposited data

How the results depend on the processing

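Abca8a kept its rise after onset under every alternative run (log2 2.29 to 2.60, each HD library left out in turn included), and its striatal excess stayed past the threshold except in the WT libraries alone (1.01, adjusted p = 0.0563). The number of members called changed elsewhere. Between genotypes over both ages it was 1 (Abca9), and 0 without a filter, without Rn45s, at a threshold of 0.01 and with a replicate block (Abca9 then at 0.96, adjusted p = 0.16), and 0 to 1 with a library left out. At 13 weeks it was 0, and 0 to 1 with a library left out, 1 being Abca7 without replicate 2 of the pre-symptomatic HD striatum. Between regions it was 1, and 2 with the replicate block (Abca7 at -0.94, adjusted p = 0.0457), 3 in the WT libraries alone and 1 to 3 with a library left out. The replicate block changed no other call of a member. Deviations of same-numbered HD libraries correlated at 0.016 to 0.19 over 13944 genes, pairs across stages included. Between striatum and cortex of 1 stage the values were 0.17 after onset and 0.098 before it. Such values cannot show whether 2 libraries came from the same mouse. The numbers were not taken as pairs in the main fits. Signs turned for Abca2 between regions in WT libraries alone (-0.41), for Abca7 at 8 weeks with the block (-0.33) and with a library left out (-0.57 to 0.59), and for Abca3 at 8 weeks with a library left out (-0.14 to 0.013, the latter without the 8-week WT cortex). With a library left out, values used only as descriptions also crossed 0. These were Abca8a at 8 weeks (-0.18 to 0.019) and, after onset, Abca8b (-0.63 to 0.60), Abca9 (-0.18 to 0.21), Abca5 (-0.22 to 0.16) and Abca2 (-0.04 to 0.45). The cause was not tested.

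Counts over all genes moved more. With 1 library left out, edgeR called 490 to 2029 genes between genotypes over both ages (1572 with all libraries, 490 without the 13-week WT striatum), 29 to 1834 at 13 weeks (1082; 29 without that same library), 0 to 444 at 8 weeks (309; 0 without the 8-week WT striatum), 0 to 5 between WT ages (2), 211 to 1518 after onset (900) and 0 to 168 for the stage change in striatum less cortex (0). DESeq2 called 1813 at 13 weeks, 674 at 8 weeks, 11 between WT ages and 1680 after onset, and a threshold of 0.01 left 595, 294, 56, 0, 161 and, between regions, 1575 of 3024. Between regions 1518 of 13944 genes were called in HD libraries alone and 4300 of 13804 in WT libraries alone. Members with at most 46 counts in every library (Abca8b, Abca9, Abca6 and Abca4) are limited by depth.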
